A study of Mus musculus with 6 samples.

Results

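The collagens of basement membranes and of microfibrils, Col4a1, Col4a2, Col4a3, Col4a5, Col4a6, Col6a1, Col6a2, Col6a3, Col15a1 and Col18a1, were described in Lewis lung carcinoma (LLC) cells from tumours grown with or without bone marrow-derived mesenchymal stem cells (BMSCs). These 10 genes were taken by their symbols, and 9 of them had values, of 18182 genes in all and 41 collagen chain genes. Col4a6 was not analysed here. LLC cells that carried red fluorescent protein (LLC-RFP) were injected under the skin of wild type C57BL/6 mice, either as LLC-RFP alone (LLC alone) or as LLC-RFP together with BMSCs (LLC with BMSCs). The cells positive for red fluorescent protein were sorted from the primary tumours by flow cytometry, and RNA was sequenced in 3 libraries per group. Mice for allografts were female and 6 weeks old per the methods, which do not name the LLC-RFP experiment in that place. LLC is a single cell line, and nothing states that the libraries came from separate animals, so that p-values measure only the spread between these libraries, which may be technical.

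Type IV collagen forms the sheet-like network of basement membranes, built from trimers of its alpha chains, and the trimer of one alpha2 and a pair of alpha1 chains is the common one, while alpha3 to alpha6 chains form more restricted networks. Type VI collagen, assembled from alpha1, alpha2 and alpha3 chains, forms beaded microfibrils next to basement membranes. Types XV and XVIII are basement membrane zone collagens with heparan or chondroitin sulfate chains, and type XVIII releases endostatin from its end. Endothelial cells, fibroblasts and carcinoma cells can all deposit these proteins around tumours.

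The libraries held 33476347 to 46189113 counted fragments, and the 9 collagens together took 0.0912% to 0.127% of the counts in LLC alone and 0.148% to 0.171% in LLC with BMSCs. Krt8, an epithelial keratin, was at 95.3 ± 5.98 FPKM in LLC alone and, with BMSCs, at 110.02 ± 2.85 FPKM (mean ± SD, n = 3 per group, as for all later pairs of means). Krt18, the usual partner of Krt8, was at 0.0833 ± 0.0503 and 0.653 ± 0.0321 FPKM, and Vim, vimentin, the intermediate filament of mesenchymal cells, at 887 ± 45.6 and 792 ± 33.8 FPKM. Epcam, Cdh1, Nkx2-1 and Sftpc, which mark epithelial or lung lining cells, had means of at most 0.0333 FPKM in either group. LLC alone replicate 3 stood apart from its group: relative to the mean of all libraries, its log2 levels had a median of -0.37 over the longest 20% of genes (4850 bases or more) and of 0.31 over the shortest 20%. The same medians over the longest genes were between -0.02 and 0.00 in the other libraries of LLC alone and between 0.10 and 0.18 in LLC with BMSCs. Of the 9 collagens, 7 belonged to these longest genes. Fold changes of single collagens are therefore given also with the trend over length removed and without LLC alone replicate 3. The groups differed in these medians also without that replicate, so that removal of the trend takes out this difference as well. Technical and biological sources of the difference cannot be told apart here. Counts and medians over gene lists are given without that removal. FPKM, fragments set relative to the length of the transcript and the size of the library, is used for levels, and all fold changes are LLC with BMSCs over LLC alone.

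Col6a3, Col18a1 and Col6a1 were higher in LLC with BMSCs, and Col6a3 changed most among those of these 9 collagens that were above 1 FPKM. The main type IV chains, Col4a1 and Col4a2, and the type VI chain Col6a2 did not pass the test. Of the 8 collagens tested, 4 were called higher (Col6a3, Col18a1, Col6a1 and Col4a5) and 1 lower (Col4a3) by edgeR's quasi-likelihood test at an adjusted p under 0.05. Of all 13353 genes tested, 31.5% were called higher and 31.3% lower, so that calls were common in both directions. FPKM values did not overlap between the groups in those 4 collagens, all higher, whereas over all genes tested 37.0% were higher without overlap, 33.7% lower and 70.6% either. Col4a5 had entered the test only through its counts in LLC with BMSCs, reaching the filter's count level in every library of that group but not of the other, so that it had to differ, and Col15a1 was too low to be tested. Of the 7 other collagens tested, 3 were higher and 1 lower, with a median log2 fold change of 0.10. Of all genes tested, 634 entered only through LLC with BMSCs and 411 only through LLC alone. Of the other 12308 genes, 30.1% were higher and 31.3% lower, with a median log2 fold change of 0.0020.

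**Figure D1:**
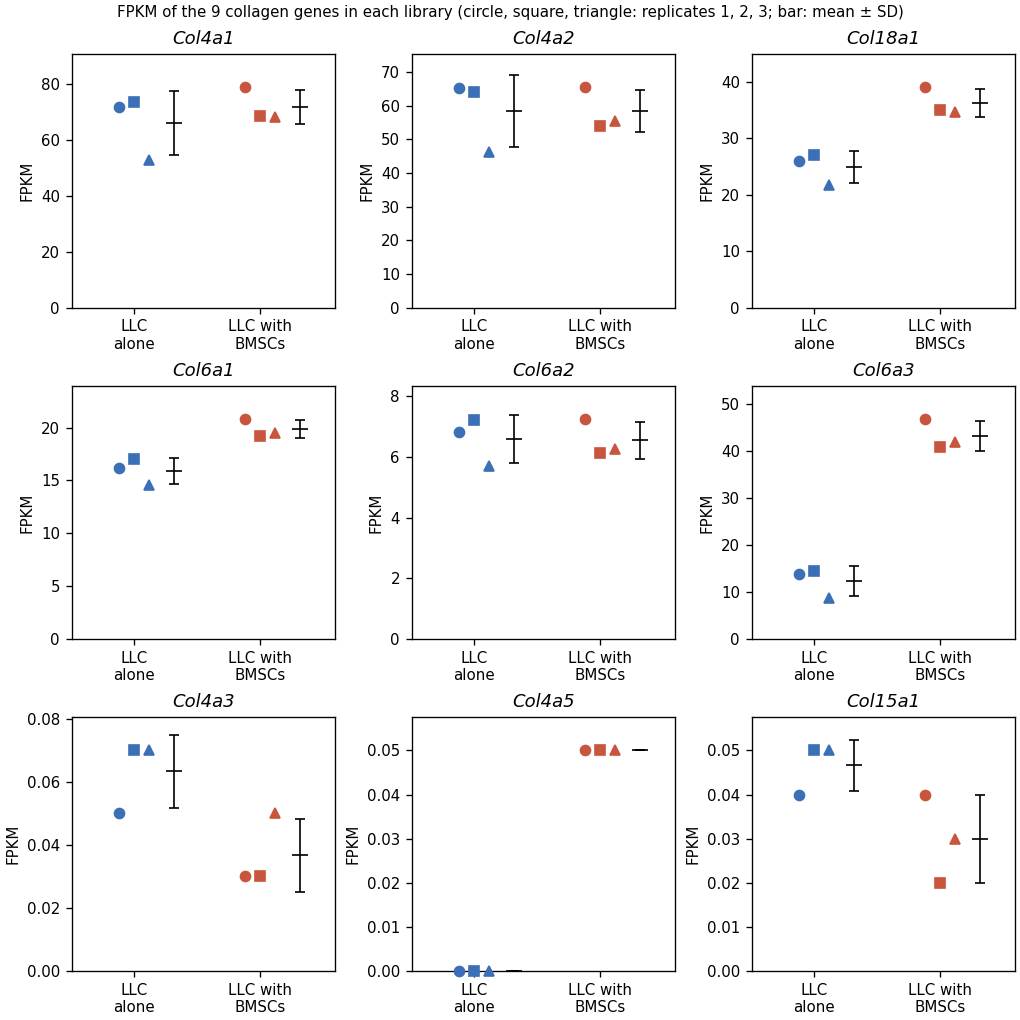
Level of each of the 9 collagen genes in FPKM (y axis, from 0, a separate scale for each gene) in the 3 libraries of LLC alone and the 3 of LLC with BMSCs. Points are libraries, with bars for the group mean ± SD; the groups are apart for Col6a3, Col18a1, Col6a1 and Col4a5 and overlap for Col4a1, Col4a2, Col6a2, Col4a3 and Col15a1.

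The type IV chains Col4a1 and Col4a2 were the most abundant collagens per length in LLC alone. Col4a1, the alpha1 chain of the common network, was at 71.65, 73.4 and 52.92 FPKM in LLC alone replicates 1 to 3 and at 78.81, 68.55 and 68.05 FPKM in LLC with BMSCs replicates 1 to 3. The groups overlapped, with LLC alone replicate 3 the lowest and LLC with BMSCs replicate 1 the highest. The log2 fold change of Col4a1 was 0.10 (SE 0.13, 95% interval -0.19 to 0.40, edgeR adjusted p = 0.505). Col4a2, the alpha2 chain of the same trimer, was at 65.21, 64.13 and 46.27 FPKM in LLC alone and at 65.59, 53.92 and 55.64 FPKM in LLC with BMSCs. These groups overlapped as well, with means of 58.5 ± 10.6 and 58.4 ± 6.30 FPKM. The log2 fold change of Col4a2 was -0.02 (SE 0.14, 95% interval -0.35 to 0.30, edgeR adjusted p = 0.895). These intervals leave room for changes of some size in either direction. With the trend over length removed, Col4a1 was at a log2 fold change of -0.13 (edgeR adjusted p = 0.055), and Col4a2 passed the test as lower, at -0.25 (edgeR adjusted p = 0.0103). Without LLC alone replicate 3, neither chain passed the test, with log2 fold changes of -0.03 for Col4a1 and -0.16 for Col4a2 (edgeR adjusted p = 0.723 and 0.103).

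Col4a1 and Col4a2 lie head to head, and the promoter windows of both are shown because the pair is transcribed in opposite directions from one stretch of DNA. The windows cover 250 bases before and 50 after the start of each gene, are taken from RefSeq on GRCm38.p6, and are written 5′ to 3′ on the strand of each gene. Capitals mark matches to a GC box (GGGCGG on either strand) or a CCAAT box (CCAAT on either strand). The window of Col4a1 is chr8:11312777-11313076 (minus strand) and that of Col4a2 is chr8:11312555-11312854 (plus strand).
Col4a1: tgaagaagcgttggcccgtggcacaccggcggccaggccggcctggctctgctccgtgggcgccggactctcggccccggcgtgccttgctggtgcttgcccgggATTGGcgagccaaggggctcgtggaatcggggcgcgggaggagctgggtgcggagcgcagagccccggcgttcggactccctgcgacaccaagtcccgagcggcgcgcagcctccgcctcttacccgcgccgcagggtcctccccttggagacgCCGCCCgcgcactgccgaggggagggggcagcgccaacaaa
Col4a2: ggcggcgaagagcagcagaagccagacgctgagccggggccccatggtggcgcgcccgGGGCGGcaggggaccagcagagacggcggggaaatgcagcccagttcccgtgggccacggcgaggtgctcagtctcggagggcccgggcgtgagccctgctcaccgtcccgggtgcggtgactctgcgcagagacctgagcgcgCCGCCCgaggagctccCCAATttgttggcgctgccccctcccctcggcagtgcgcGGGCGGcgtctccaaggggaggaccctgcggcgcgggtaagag
The start sites lie 21 bases apart, and the windows share 78 bases. G and C made up 74.0% of the Col4a1 window, more than in 95.2% of the 32851 windows of all genes, and 73.7% of the Col4a2 window. A GC box was present in 35.7% of all windows and a CCAAT box in 37.4%, and each of these 2 windows held both. The only GC box of the Col4a1 window lies in the shared bases and is also 1 of the 3 of the Col4a2 window. A match is a description of these letters, not evidence of a bound factor.

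The restricted type IV chains were near the limit of detection, and Col4a1 and Col4a2 together made up 99.8% to 99.9% of the type IV FPKM in every library. Col4a5, the alpha5 chain, had 0 counts in all 3 libraries of LLC alone and 13, 15 and 15 counts in LLC with BMSCs, or 0.05 FPKM in each. Against a floor of 3 counts per library, which covers counting error only, Col4a5 was at least 4.38-fold higher in LLC with BMSCs, given as a description because of how it entered the test. Its counts were listed under one transcript in replicates 1 and 3 and under another in replicate 2. Col4a3, the alpha3 chain, had 19, 21 and 27 counts in LLC alone and 13, 13 and 18 in LLC with BMSCs. Its FPKM values, 0.05, 0.07 and 0.07 against 0.03, 0.03 and 0.05, touched at 0.05. Col4a3 fell by 0.70 on the log2 scale (SE 0.26, 95% interval -1.31 to -0.10, edgeR adjusted p = 0.046). This call was lost in 9 of 14 alternatives, among them those without LLC alone replicate 2 or 3 or without LLC with BMSCs replicate 1 or 2 (edgeR adjusted p = 0.121, 0.116, 0.125 and 0.135), and stood with the trend over length removed (-1.04, edgeR adjusted p = 0.0158). Exons of Col4a3 share 563 bases with a gene on the opposite strand in the annotation, and whether the counting used strand is not stated in the sources used here. Col15a1, the type XV chain, had 10, 8 and 12 counts in LLC alone and 9, 4 and 6 in LLC with BMSCs, which overlapped. Without the filter on low counts, Col15a1 was at a log2 fold change of -0.74 (edgeR adjusted p = 0.152).

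Among type VI chains, Col6a3 rose 3.47-fold and Col6a1 1.23-fold, and Col6a2 did not pass the test. Col6a3, the long alpha3 chain whose end is released as endotrophin, was at 13.92, 14.47 and 8.68 FPKM in LLC alone and at 46.86, 40.77 and 41.9 FPKM in LLC with BMSCs. All 3 libraries of LLC with BMSCs lay above all 3 of LLC alone, and LLC alone replicate 3 was the lowest. Col6a3 was 3.47-fold higher in LLC with BMSCs (95% interval 2.47 to 4.86, log2 fold change 1.79, SE 0.21, edgeR adjusted p = 0.000215). Of all genes tested, 4.50% had a log2 fold change at or above that of Col6a3. Its mean rose from 12.4 ± 3.20 to 43.2 ± 3.24 FPKM, which moved it from rank 9 to rank 4 among the collagen genes and from rank 5559 to rank 1951 among all genes. With the trend over length removed, the log2 fold change was 1.47 (edgeR adjusted p = 7.47e-07), and without LLC alone replicate 3 it was 1.57 (edgeR adjusted p = 3.45e-07).

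Col6a1, the alpha1 chain of type VI, was at 16.18, 16.99 and 14.59 FPKM in LLC alone and at 20.83, 19.22 and 19.46 FPKM in LLC with BMSCs. The groups did not overlap, and the gap between them was small beside that of Col6a3. Col6a1 was 1.23-fold higher (log2 fold change 0.30, SE 0.07, edgeR adjusted p = 0.00911). Col6a2, the alpha2 chain encoded next to Col6a1, was at 6.83, 7.2 and 5.7 FPKM in LLC alone and at 7.25, 6.14 and 6.25 FPKM in LLC with BMSCs. These values overlapped, and the log2 fold change of Col6a2 was -0.03 (SE 0.10, 95% interval -0.27 to 0.22, edgeR adjusted p = 0.846). With the trend over length removed, Col6a1 was at 0.21 (edgeR adjusted p = 0.00286) and Col6a2 at -0.08 (edgeR adjusted p = 0.365) on the log2 scale. Without LLC alone replicate 3, Col6a1 was at 0.24 (edgeR adjusted p = 0.00375) and Col6a2 at -0.11 (edgeR adjusted p = 0.229).

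**Figure D2:**
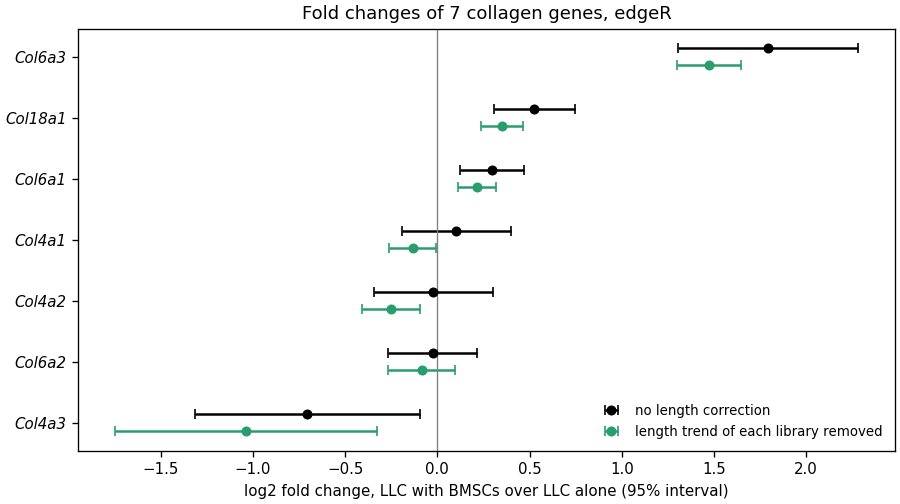
Log2 fold change (x axis) of 7 collagen genes, LLC with BMSCs over LLC alone, with 95% intervals from edgeR, without and with removal of each library's trend over gene length. Col6a3, Col18a1 and Col6a1 lie right of 0 in both fits, while Col4a1 is at 0.10 and at -0.13; Col4a5 is left out because it was at 0 counts in LLC alone.

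The promoter window of Col6a3, which had the largest change among those of the 9 collagens above 1 FPKM, is chr1:90843922-90844221 (GRCm38.p6, minus strand, from RefSeq).
Col6a3: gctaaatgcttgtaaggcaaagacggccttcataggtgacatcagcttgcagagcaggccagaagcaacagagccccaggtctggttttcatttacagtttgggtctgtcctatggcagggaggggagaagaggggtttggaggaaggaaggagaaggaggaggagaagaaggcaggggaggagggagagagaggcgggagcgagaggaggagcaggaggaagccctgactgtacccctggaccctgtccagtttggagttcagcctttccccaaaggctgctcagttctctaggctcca
G and C made up 56.3% of it, less than in the window of Col4a1. It held no match on either strand to the GC box, the CCAAT box, the AP-1 consensus TGANTCA, the STAT consensus TTCNNNGAA or the letters TATAAA of the TATA box, which says only that these letters are not in this window. Of all windows, 7.81% held the AP-1 consensus, 8.30% the STAT consensus and 13.6% the TATA box.

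The chains of one trimer were compared as ratios of FPKM within each library, since a ratio removes the scale of the library. It does not remove the trend over length where the chains differ in length, as Col6a3 (10063 bases) and Col6a1 (3997 bases) do. No ratio was taken with that trend removed. Col6a3 over Col6a1 was 0.860, 0.852 and 0.595 in LLC alone and 2.25, 2.12 and 2.15 in LLC with BMSCs. The alpha3 chain was thus below the alpha1 chain in every library of LLC alone and above it in every library of LLC with BMSCs. Col6a3 made up 30.0% to 37.7% of the type VI FPKM of the 3 chains in LLC alone and 61.7% to 62.5% in LLC with BMSCs. Col6a1 over Col6a2 had means of 2.43 ± 0.113 in LLC alone and 3.04 ± 0.144 in LLC with BMSCs. Col4a1 over Col4a2 had means of 1.13 ± 0.0262 and 1.23 ± 0.0357. In each of these 3 ratios the groups did not overlap, and the exact two-sided permutation test gave p = 0.1 (0.1 adjusted over the 3 ratios), the smallest p that 3 against 3 libraries allow. The log2 differences were 1.52 for Col6a3 over Col6a1, 0.32 for Col6a1 over Col6a2 and 0.13 for Col4a1 over Col4a2. Exons of Col4a1 and Col4a2 share 22 bases on opposite strands, and reads in these bases cannot be told apart without strand.

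**Figure D3:**
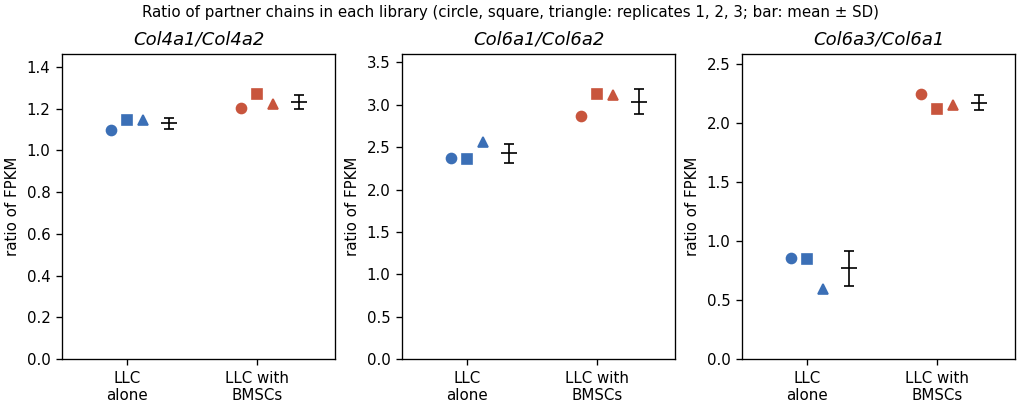
Ratio of the FPKM of 2 chains (y axis, from 0) in each library of LLC alone and LLC with BMSCs, with bars for the group mean ± SD. Col6a3 over Col6a1 moves from a mean of 0.769 to 2.17, while Col4a1 over Col4a2 moves from 1.13 to 1.23.

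Col6a3 reads were divided among 4 transcripts in the deposited transcript table, 2 from RefSeq (10845 and 9024 bases) and 2 assembled by the authors' pipeline (10338 and 9667 bases). The mean of each was higher in LLC with BMSCs. The assembled transcript of 10338 bases was at 9.24, 8.69 and 1.54 FPKM in LLC alone and at 25.02, 21.86 and 23.73 FPKM in LLC with BMSCs. The RefSeq transcript of 9024 bases was at 0.97, 1.03 and 5.8 FPKM in LLC alone and at 7.61, 6.48 and 5.74 FPKM in LLC with BMSCs. LLC alone replicate 3 thus differed from its group in the make-up of Col6a3: the transcript of 9024 bases held 66.7% of the Col6a3 FPKM there, against 6.96% and 7.12% in replicates 1 and 2 and 13.7% to 16.2% in LLC with BMSCs. The mean share of this transcript in LLC with BMSCs minus that in LLC alone was -11.7 percentage points over all libraries and 8.24 percentage points without LLC alone replicate 3. Over 8 transcripts of Col6a1, Col6a3 and Col18a1 the shares gave exact two-sided permutation p-values from 0.1 to 1, and the smallest became 0.8 after adjustment over the 8. Reads shared between transcripts are divided by estimation, so that shares are less certain than gene totals.

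**Figure D4:**
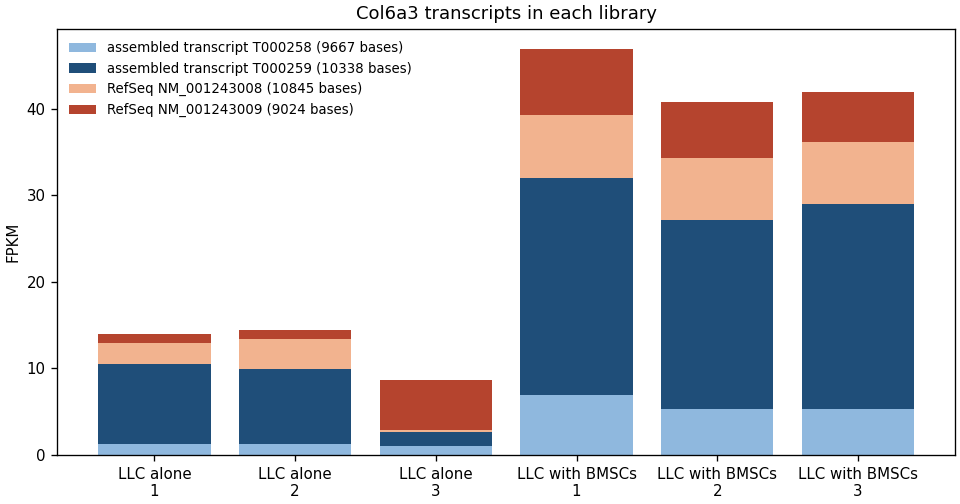
FPKM of the 4 Col6a3 transcripts (y axis, stacked bars) in each of the 6 libraries. Bars of LLC with BMSCs reach 40.8 to 46.9 FPKM and those of LLC alone 8.68 to 14.5; in LLC alone replicate 3 the RefSeq transcript of 9024 bases makes up 66.7%.

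Col18a1, the type XVIII chain, was at 25.91, 26.95 and 21.62 FPKM in LLC alone and at 39.04, 34.97 and 34.61 FPKM in LLC with BMSCs. Every library of LLC with BMSCs lay above every library of LLC alone. Col18a1 was 1.44-fold higher (log2 fold change 0.52, SE 0.09, 95% interval 0.31 to 0.74, edgeR adjusted p = 0.00185). The log2 fold change was 0.35 with the trend over length removed (edgeR adjusted p = 0.000262) and 0.44 without LLC alone replicate 3 (edgeR adjusted p = 0.000308). Type XVIII collagen is made from 2 promoters, an upstream one that gives the short form typical of basement membranes and a downstream one that gives longer forms. The RefSeq transcript of 5058 bases, which starts at the upstream promoter, held 99.8% to 100% of the Col18a1 FPKM in every library. The transcript of 5642 bases, which starts at the downstream promoter, held at most 0.193%. Both windows are shown because the transcripts were so unequal, with capitals as above, the upstream one at chr10:77166481-77166780 and the downstream one at chr10:77113656-77113955 (GRCm38.p6, minus strand, from RefSeq).
Col18a1 upstream: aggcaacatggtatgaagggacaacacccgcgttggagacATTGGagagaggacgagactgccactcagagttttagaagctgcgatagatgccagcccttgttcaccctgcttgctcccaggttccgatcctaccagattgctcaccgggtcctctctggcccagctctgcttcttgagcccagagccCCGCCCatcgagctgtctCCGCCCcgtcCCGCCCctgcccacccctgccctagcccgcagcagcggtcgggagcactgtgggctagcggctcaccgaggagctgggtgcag
Col18a1 downstream: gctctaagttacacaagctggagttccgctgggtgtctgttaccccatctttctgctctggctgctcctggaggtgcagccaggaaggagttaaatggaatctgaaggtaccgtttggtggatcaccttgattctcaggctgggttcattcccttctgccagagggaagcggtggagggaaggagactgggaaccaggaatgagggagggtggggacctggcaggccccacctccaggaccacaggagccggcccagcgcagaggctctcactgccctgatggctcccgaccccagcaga
The upstream window held 3 GC boxes and 1 CCAAT box, and the downstream window held none of the 5 motifs searched.

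In the order of levels per length in LLC alone, Col4a1 was followed by Col4a2, Col18a1, Col6a1, Col6a3 and Col6a2. The ranges of Col4a1 and Col4a2 over the libraries overlapped, whereas Col4a2 lay above Col18a1 and each further chain above the next down to Col6a2. In LLC with BMSCs Col6a3 stood after Col4a1 and Col4a2 and before Col18a1, and each of these chains lay above the next without overlap. Col4a3, Col4a5 and Col15a1 stayed at or under 0.07 FPKM in all libraries. LLC alone replicate 3 had the lowest value of all 6 libraries for all 6 collagens above 1 FPKM, and LLC with BMSCs replicate 1 had the highest value of its group for all 6. The 9 collagens made up 60.7% to 62.9% of the summed FPKM of all collagen genes in LLC alone and 49.4% to 51.1% in LLC with BMSCs, as the summed collagen FPKM went from between 247 and 324 to between 452 and 505.

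The genes whose level was most like that of each main chain were taken by Pearson's r of log2(FPKM + 1) over the 6 libraries, over the 10835 genes whose mean reached 1 FPKM. These are descriptions over libraries that share depth and the trend over length. For Col4a1 they were Ptpn21 (r = 0.997), Ogdh (0.996) and Tep1 (0.994), and its partner Col4a2 stood at rank 313 (0.926). For Col6a1 they were Lrrc8c, Pml and Racgap1 (r = 0.999, 0.999 and 0.998), with Col6a3 at rank 343 (0.978) and Col6a2 at rank 4882 (0.40). For Col18a1 they were Lrp5, Lrrc8b and Flywch1 (r = 0.9997, 0.9993 and 0.9991), with Col4a1 at rank 4063 (0.693).

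Of 20 genes tested that build basement membranes with type IV and XVIII collagen, 10 were called higher, 3 lower and 7 did not pass. Over all genes tested, 31.5% were called higher and 31.3% lower. Of the 20 partners, 2 entered the test only through LLC with BMSCs, among them Lama1, which had 0 counts in every library of LLC alone and had to differ. The other 18 held 8 higher and 3 lower, with a median log2 fold change of 0.19. Without genes that entered through 1 group only, 30.1% of all genes were higher and 31.3% lower. Some partners are long, such as Hspg2 (14276 bases) and Lama5 (11404 bases), and these counts and this median were taken without removing the trend over length. Nid1, nidogen, which links laminin to type IV collagen, went from 28.1 ± 4.51 to 78.6 ± 4.85 FPKM (log2 fold change 1.46, edgeR adjusted p = 3.33e-05). Hspg2, the heparan sulfate proteoglycan perlecan, went from 33.0 ± 12.01 to 66.4 ± 10.2 FPKM (0.99, edgeR adjusted p = 0.0124), and Agrn, agrin, from 5.34 ± 0.997 to 20.0 ± 0.854 FPKM (1.88, edgeR adjusted p = 1.53e-05). Pxdn, the peroxidase that forms the sulfilimine cross-links of type IV collagen, went from 35.3 ± 6.69 to 93.7 ± 4.46 FPKM (1.39, edgeR adjusted p = 7.91e-05). The laminin chains Lamb1 (84.3 ± 13.7 and 96.0 ± 5.17 FPKM, edgeR adjusted p = 0.236) and Lamc1 (66.7 ± 13.9 and 67.8 ± 4.65 FPKM, edgeR adjusted p = 0.98) did not pass. With the trend over length removed Lamc1 passed as lower (log2 fold change -0.27, edgeR adjusted p = 0.00183), as it did without LLC alone replicate 3 (-0.15, edgeR adjusted p = 0.044), and Hspg2 was at 0.61 (edgeR adjusted p = 0.000701) with the trend removed but missed the threshold without LLC with BMSCs replicate 1 (edgeR adjusted p = 0.0551). Nid1, Hspg2, Agrn, Pxdn, Lamb1 and Lamc1 were chosen after their values were seen. Among the largest changes of the list were those of Col7a1, the anchoring fibril collagen (0.363 ± 0.0321 to 12.9 ± 0.715 FPKM, log2 fold change 5.13), and Tinagl1, a basement membrane glycoprotein (-2.25), both passing the test.

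The other network-forming chains tested, Col8a1 and Col4a4, were both called lower, Col4a4 after entering the test only through LLC alone. Col8a1, a chain of the short-chain type VIII network, went from 12.7 ± 1.28 to 7.54 ± 0.337 FPKM (log2 fold change -0.77, edgeR adjusted p = 0.000152), and Col4a4, the alpha4 chain of type IV, was at 0.09 ± 0.0173 and 0.0433 ± 0.0115 FPKM. Over all genes tested, 31.5% were called higher and 31.3% lower. Among fibrillar and fibril-associated collagens, 9 of 15 were higher, 3 lower and 3 did not pass. Without 1 gene that entered through each group only, 8 of 13 were higher and 2 lower, with a median log2 fold change of 0.82. Col5a3 went from 1.64 ± 0.269 to 15.4 ± 0.926 FPKM and Col1a2 from 0.597 ± 0.0404 to 1.98 ± 0.132 FPKM. Col1a1 had 2, 4 and 4 counts in LLC alone and reached 2.003 ± 0.208 FPKM in LLC with BMSCs.

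The enzymes and transport factors that fold collagen chains were mixed. Of 22 such factors tested, 13 were higher, 4 lower and 5 did not pass, with a median log2 fold change of 0.32. Over all genes tested, 31.5% were called higher and 31.3% lower. P4ha2, a prolyl 4-hydroxylase subunit (1.42), and the lysyl hydroxylases Plod2 and Plod1 (both 1.25) had the largest log2 fold changes. Serpinh1, the collagen chaperone HSP47, chosen after its values were seen, went from 242 ± 14.0 to 136 ± 2.46 FPKM (log2 fold change -0.85, edgeR adjusted p = 2.23e-05). Among receptors, 8 of 15 were higher, 3 lower and 4 did not pass, and without 2 that entered only through LLC with BMSCs, 6 of 13 were higher and 3 lower, with a median of 0.44. The integrin chains Itgb3 (3.88) and Itgav (1.29) were higher, and Cspg4, the proteoglycan NG2, which binds type VI collagen, was lower (-2.59). Itgb3 (0.0633 ± 0.00577 to 0.937 ± 0.0252 FPKM) and Cspg4 (0.75 ± 0.173 to 0.127 ± 0.0379 FPKM) had means below 1 FPKM in both groups. Itgav went from 13.0 ± 2.23 to 32.4 ± 0.686 FPKM. Antxr2, a receptor of type IV and VI collagen, chosen after its values were seen, went from 38.4 ± 1.79 to 20.4 ± 0.0252 FPKM (-0.92, edgeR adjusted p = 9.73e-06).

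Proteases that cut these collagens or release their fragments were called in 16 of 16 cases, 12 higher and 4 lower, where 62.9% of all genes tested were called in either direction. Without 2 that entered only through LLC with BMSCs, 10 of 14 were higher and 4 lower, with a median log2 fold change of 0.70. Mmp9, a gelatinase that degrades type IV collagen, went from 0.147 ± 0.0379 to 5.39 ± 0.132 FPKM (log2 fold change 5.12), and Mmp13, a collagenase, from 0.763 ± 0.0603 to 23.4 ± 1.56 FPKM (4.91). Mmp12, the macrophage elastase, was one of these 2, having 1, 0 and 0 counts in LLC alone, and was at 2.10 ± 0.0917 FPKM with BMSCs. Over all genes tested, 31.5% were called higher and 31.3% lower. Of 11 matrix partners of type VI collagen, 6 were higher, 3 lower and 2 did not pass, and without 3 that entered only through LLC with BMSCs, Dcn among them, and 1 only through LLC alone, 4 of 7 were higher and 2 lower (median log2 fold change 0.60). The small proteoglycans Dcn (0.11 ± 0.0173 to 6.31 ± 0.223 FPKM, log2 fold change 5.87) and Bgn (1.53 ± 0.0321 to 4.44 ± 0.256 FPKM, 1.54), which bind type VI collagen, and Fbn1, fibrillin-1 (5.30 ± 1.46 to 10.8 ± 0.819 FPKM, 1.0), were among the 11. Fbn1 is long (9993 bases), and its log2 fold change was 0.68 with the trend over length removed and 0.80 without LLC alone replicate 3. Of 21 regulators of the TGF-beta pathway and the hypoxia response, 12 were higher, 5 lower and 4 did not pass, and without 1 that entered only through LLC with BMSCs the median log2 fold change was 0.19. Bnip3 and Egln3, hypoxia targets, had log2 fold changes of 1.77 and 1.66.

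**Figure D5:**
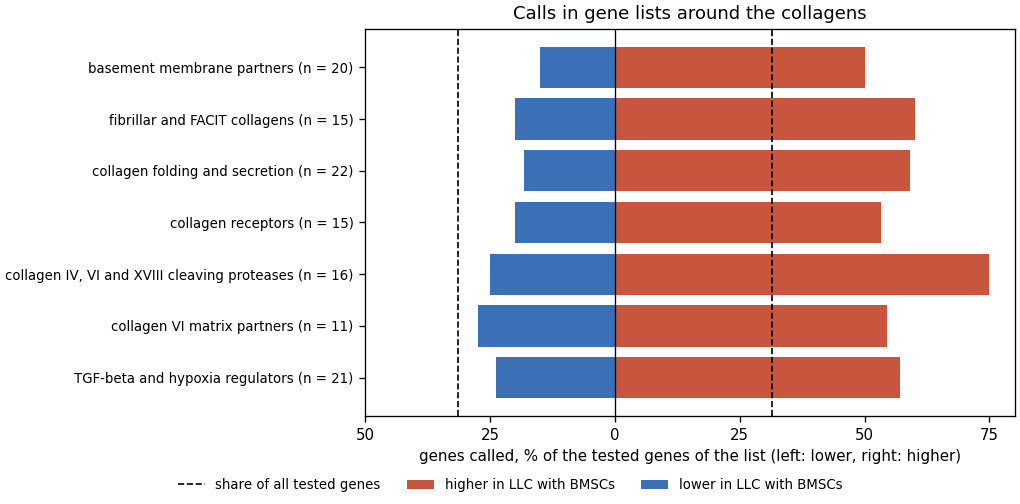
Share of the tested genes called higher (right) or lower (left) in LLC with BMSCs, in percent (x axis), for the 7 lists other than cell markers that had at least 10 genes tested, with dashed lines at the share over all genes tested, 31.5% higher and 31.3% lower. In these 7 lists the shares called higher run from 50% to 75% and those called lower from 15.0% to 27.3%, genes that entered the test through 1 group only included. The trend over length was not removed.

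Markers of other cells that a sort could carry over were measured beside these results. In bulk libraries, fewer cells of a type and less RNA per cell cannot be told apart. Beside the counts of calls in these marker lists, the shares over all genes tested were 31.5% higher and 31.3% lower. Of 13 marrow stromal and fibroblast markers tested, 11 were higher, 3 of which entered the test only through LLC with BMSCs, and 2 lower. The summed level over all 18 was 578 to 622 CPM (counts scaled to the library total) in LLC alone and 630 to 649.7 CPM in LLC with BMSCs. Of the most abundant, Twist2 was lower, from 103.5 ± 13.7 to 42.6 ± 1.07 FPKM (log2 fold change -1.30, edgeR adjusted p = 2.35e-05), whereas Prrx1, from 29.2 to 46.0 FPKM, and Eng, from 28.7 to 34.8 FPKM, were higher (log2 fold changes 0.65 and 0.26). The nearly level sum thus held Twist2 moving against most of the list. Thy1, Fap, Cxcl12 and Postn, chosen after their values were seen, stayed at means of at most 0.09 FPKM in either group. Dcn of the same list, which entered only through LLC with BMSCs, went from 0.11 ± 0.0173 to 6.31 ± 0.223 FPKM. Dcn and Lum count in this list and among the type VI partners. Endothelial markers summed to 15.7 to 18.7 CPM in LLC alone and 16.7 to 18.2 CPM in LLC with BMSCs, with 2 of 6 higher, 1 lower and 3 not called. Egfl7, Esam and Plvap were the most abundant. Egfl7 was not called, Esam was lower (log2 fold change -0.85, edgeR adjusted p = 0.00436) and Plvap higher (1.29, edgeR adjusted p = 0.00364). Cdh5, Kdr, Tek and Tie1, further markers of this list chosen after their values were seen, had means of at most 0.0633 FPKM. Pericyte and mural markers summed to 12.2 to 13.7 CPM and 8.70 to 11.3 CPM, with 3 of 6 higher (3 of the 6 entered the test only through LLC with BMSCs) and 2 lower, and Des, Cspg4 and Rgs5 the most abundant. Macrophage and leukocyte markers summed to 24.3 to 29.0 CPM and 36.5 to 39.1 CPM, with 6 of 8 higher and 1 lower and a median log2 fold change of 2.61. Of these 8, 4 entered the test only through LLC with BMSCs, Ptprc among them, and the other 4 had a median of 0.32. The most abundant were Cd14 (9.49 and 10.1 FPKM, not called), Cd68 (5.55 and 3.03 FPKM, lower) and Lyz2 (3.08 and 4.71 FPKM, higher). Ptprc, the pan-leukocyte marker, went from 0.03 ± 0.02 to 0.45 ± 0.04 FPKM. Of adipocyte markers the 1 tested, Fabp4, was not called, of muscle and Schwann markers 1 of 4 was lower (Des) and 3, with Mylpf, were not called, and of skin epithelium markers none was tested, with Trp63 and Krt10 at means of at most 0.0133 FPKM. The part of such cells in the collagen values was not tested.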

How the data were processed

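RNA of sorted LLC cells was analysed in 6 libraries, 3 per group, grouped by the sample titles. For genes and for transcripts, the authors deposited estimated counts, which can be fractional, and FPKM values scaled by transcript length and library total. Between 21.9% and 23.2% of genes in a library had a count that was not whole, but those of the 9 collagens were whole in all libraries. The submitters' processing notes name HISAT, StringTie, Cufflinks and GATK and the build mm8, without their roles. The quantification program, annotation and strand setting are not given in the sources used here. The labels name Illumina library protocols, whereas the study's methods name paired-end reads of 100 bp on a BGISEQ platform after oligo-dT enrichment. The FPKM table of the whole series equalled the single files. Estimated counts were rounded, scaled by TMM and filtered with filterByExpr, and tested with the quasi-likelihood test of edgeR 4.0.16 in R 4.3.3 over all genes (Benjamini-Hochberg, threshold 0.05). Standard errors and 95% intervals come from that fit, whose biological coefficient of variation was 9.92%. On simulated counts for 13353 genes with 200 changed by a log2 fold change of 1, 180 were recovered with 8 false calls. The simulated libraries were independent draws without a trend over length or closely alike pairs, so that these numbers do not measure the error in the real libraries. Depth limits Col4a3, Col4a5 and Col15a1, which had at most 27 counts, and floors cover counting error only.

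A gene at 3 counts or fewer in every library of one group was given a bound in place of its fitted fold change. Closely alike libraries (LLC alone 1 and 2, chi-square per gene 4.69, and LLC with BMSCs 2 and 3, 2.98, against 18.9 to 59.3 for other pairs) still differed by more than sampling noise and were kept as separate, and a fit with each of these pairs summed was an alternative. The other alternatives were DESeq2 1.42.0, limma 3.58.1 on log2(FPKM + 1) and log2(FPKM + 0.1), upper-quartile scaling, no TMM factors, at least 10 counts in every library, no filter, removal of each library's trend over gene length, a replicate block, each library left out, and a required log2 change of 1 or more. Promoter windows and their coordinates come from RefSeq on GRCm38.p6, matched by gene identifier. Windows were present for 9 of the 10 genes. Exon overlaps come from the GENCODE annotation of the same assembly.

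The collagens and the gene lists (basement membrane partners, other network chains, fibrillar and fibril-associated collagens, folding factors, receptors, proteases, type VI partners, TGF-beta and hypoxia regulators, and markers of 7 kinds of cells) were chosen with earlier results of these data known. From each list that is not a marker list, up to 3 genes with the largest absolute log2 fold change among those called with at least 50 normalized counts were named, from each marker list the 3 with the highest mean FPKM, and for Col4a1, Col6a1 and Col18a1 the 3 most alike genes. Some genes that this rule takes are not reported here. Other genes named with values, and the epithelial markers, were chosen after their values were seen.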

Additional observations from a re-analysis of the deposited data

How the results depend on the processing

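Col6a3, Col18a1 and Col6a1 were called higher in all 16 alternatives that gave each a fold change, at log2 fold changes of 1.47 to 1.95, 0.35 to 0.60 and 0.21 to 0.35. The number of collagens called higher was 4 with each library left out, and 2 (Col6a3 and Col4a5) when a log2 change of 1 or more was also required. Both numbers include Col4a5, which entered the test only through LLC with BMSCs and had to differ. With at least 10 counts in every library and with both limma fits, Col4a5 was not tested and 3 were called higher. The number called lower, 1 (Col4a3), was 0 with library size without TMM, no filter, the replicate block, close pairs summed, DESeq2, both limma fits and the added limit on the log2 change, 0 to 1 with a library left out, and 2 with the trend over length removed, where Col4a2 was added. Col4a3 was called in 5 of 14 alternatives. Genes of the lists called numbered 121, 111 to 129 with a library left out, and 63 when a log2 change of 1 or more was also required. Calls over all genes moved with the setting too. They numbered 8393 of 13353 tested, 7198 to 9275 with a library left out, and 2112 with that limit. The list counts are thus no result about the lists alone.

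Chains that were not called changed direction. Col4a1 was at -0.13 with the trend over length removed and at -0.0283 to 0.18 with a library left out. Col4a2 was at 0.0946 with close pairs summed, 0.0077 and 0.0080 with limma at pseudocounts of 1 and 0.1, and -0.16 to 0.0593 with a library left out. Col6a2 was at 0.0568 with close pairs summed and -0.11 to 0.040 with a library left out. The cause was not tested.

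Same-numbered libraries did not deviate together (r = 0.0762, -0.106 and 0.0572). These values cannot exclude a pairing by number, since LLC alone replicate 3 and LLC with BMSCs replicate 1 stood apart from their groups. With the replicate block, 118 list genes and 4 collagens higher were called, beside 8219 of all 13353 genes tested. Col4a3 then had an edgeR adjusted p of 0.0651. The log2 difference of the chain ratios stayed at 1.52, 0.32 and 0.13 (exact sign-flip p = 0.25, the smallest 3 pairs allow).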
